A study of Mus musculus with 26 samples.

Results

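Muscle RNA of mice without sarcospan was set against that of mice without a sarcoglycan. The comparison holds 2 RNA samples of the group labelled sspn and 10 RNA samples of 5 sarcoglycan-deficient lines, 12 of the 26 samples of the series, chosen by their labels alone. The lines were sgca, which lacks alpha-sarcoglycan, sgcb and sgcb2, which by their names both lack beta-sarcoglycan, sgcd, which lacks delta-sarcoglycan, and 1 further line that enters the mean and is not described on its own. Every RNA sample was hybridised on 2 two-channel arrays, and the 26 arrays closed into a loop with no common reference, so the 12 samples were on 18 arrays and the 2 sspn samples on 4. The other groups in that loop were the wild types bl6 and bl10, the dystrophin-deficient mdx and mdx3cv, the dysferlin-deficient dysf and sjl, and hDMD, named for the human DMD gene. The labels give no tissue, age, sex, background strain, allele or clone, so strain and missing protein cannot be told apart. That the tissue was muscle is taken from the title of the series, and ratios between samples cannot be checked for the level of a muscle marker. Nothing says that samples of a group were separate mice, so the spread behind the p-values may be technical. That spread joins arrays and samples, and the share of the samples in it was set alike for every gene.

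Dystrophin ties the cytoskeleton of the muscle fibre to a complex in its membrane, and the sarcoglycans and sarcospan are members of that complex that sit side by side. Loss of a sarcoglycan breaks up the sarcoglycan group and causes muscular dystrophy, in which fibres die, macrophages enter and clear them, satellite cells rebuild them and fibroblasts lay down matrix. Mice that lack sarcospan alone have been described as free of overt muscle disease. The comparison asks how the RNA of such muscle differs from that of muscle with the rest of the neighbouring complex lost.

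Genes of macrophages, chemokines, matrix and regeneration that passed the test were all lower in the sspn samples. On those lists 22 of 40, 8 of 46, 8 of 51 and 5 of 37 measured members passed, in that order. The lists were chosen with earlier results of these data known, and most genes that passed lay outside them. Of 6540 genes measured, 208 passed the test (3.18%), of which 171 were lower in sspn (2.61%) and 37 were higher (0.566%), by limma's empirical Bayes test with Benjamini-Hochberg adjustment and a threshold of 0.05. The median difference over all genes was 0.04 on the log2 scale, and 3104 of the 6540 lay below 0. Lower genes differed by more than 2-fold in 170 of 171 cases and by more than 4-fold in 98, and higher genes by more than 2-fold in 37 of 37 and by more than 4-fold in 10. The levels of the 2 sspn samples lay below those of all 10 sarcoglycan-deficient samples for 335 genes (5.12%) and above all 10 for 47 (0.719%). Among the genes that passed, this absence of overlap held for 126 of the 171 lower and 8 of the 37 higher genes.

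The direction of every ratio, taken as channel 1 over channel 2, is likely rather than stated: read this way, 7 of 9 pairs of a line and the gene it lacks were lower in that line than in the wild types (3 of the 7 with an unadjusted limma p under 0.05), and both pairs of Dysf, the dysferlin gene, were higher, by 0.55 in dysf and 0.76 in sjl. Read the other way every sign turns, so that 171 genes would be higher and 37 lower in sspn, with all macrophage calls higher.

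The calls varied with single samples. Without sspn sample 1 or without sspn sample 2, limma's test passed 0 genes (625 and 620 at an unadjusted p under 0.05); the lone sample is then assumed to vary like the other groups, and the differences stayed large, with Ccl2 at -6.09 and -4.48 and Lilrb4a at -4.06 and -4.41. Without sgcb sample 2, or without 1 sample of the line not described on its own, 14 genes passed, all lower.

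**Figure D1:**
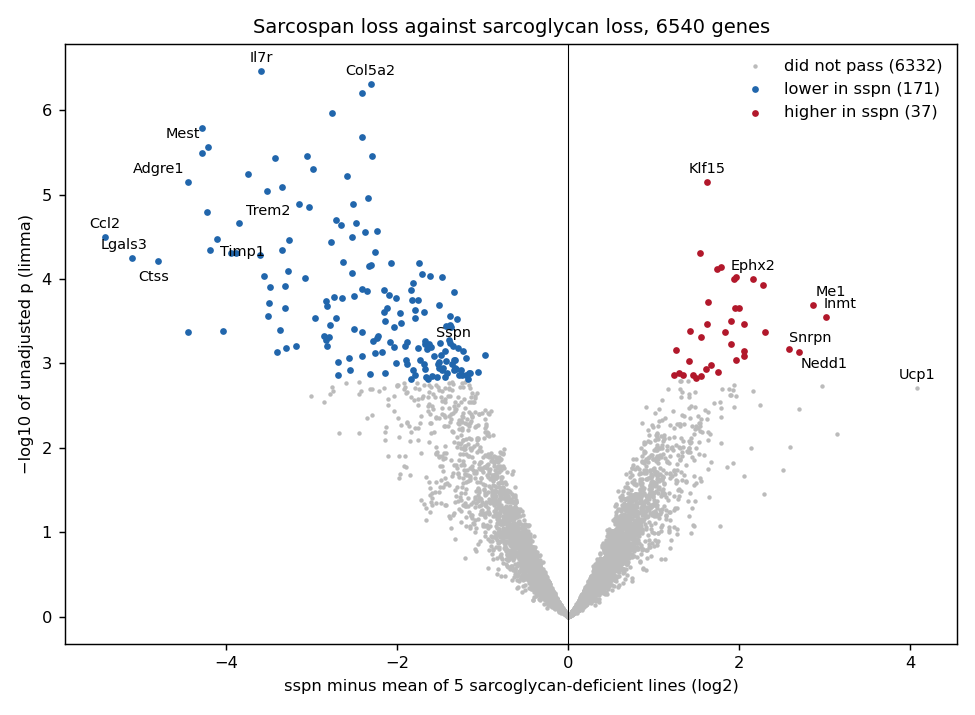
Each point is 1 of 6540 genes. The x axis gives the difference between sspn and the mean of the 5 sarcoglycan-deficient lines on the log2 scale, and the y axis the unadjusted p of limma's test on the −log10 scale. The 171 blue genes on the left passed the test lower in sspn, reaching -5.42 for Ccl2, and the 37 red genes on the right passed it higher, reaching 3.01 for Inmt. Ucp1 lies farther out at 4.08 and did not pass.

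Members of the complex itself were examined first. Here and below a sample's level is its fitted log2 level, with 0 at the mean of the 10 sarcoglycan-deficient samples. A difference is sspn minus the mean of the 5 lines, from the fit by groups. Levels came from a second fit, with the 12 samples as own terms, where large differences were mostly smaller. There Ccl2, described below, differed by -3.89 instead of -5.42, Lgals3 by -3.29 instead of -5.11 and Sspn by -1.57 instead of -1.35. Sspn, which encodes sarcospan, was at -1.66 and -1.47 in the 2 sspn samples and between -1.41 and 1.28 (median -0.06) in the others. The sspn samples were thus below all 10, although the lowest of the 10, sgca sample 1, came close to them. The difference was -1.35 (SE 0.33, adjusted p = 0.030), and Sspn was also among the genes used to choose the direction of the ratios. Against sgcb alone it was -2.44 (SE 0.36, adjusted p = 0.0085), and against sgca -0.52.

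Sgca was at 1.76 and 0.94 in sspn and ran from -4.17 to 2.79 (median 0.21) in the sarcoglycan-deficient samples, where sgca sample 2 was lowest. Its difference from the mean was 1.43 and did not pass (SE 0.49, adjusted p = 0.12), while against sgca alone it was 5.06 (SE 0.68, adjusted p = 0.0019). Sgcb, encoding beta-sarcoglycan, was at 1.26 and 1.05 in sspn and between -2.79 and 1.61 (median 0.29) elsewhere, lowest in sgcb sample 2. The difference of 1.78 did not pass (SE 0.52, adjusted p = 0.062), and it was 2.80 against sgcb and 2.56 against sgcb2. Sgcd differed by 0.65 (95% interval -0.20 to 1.49) and Dmd, the gene of dystrophin, by -0.02 (95% interval -0.69 to 0.64). Sgca, Sgcb, Sgcd and Dmd were, like Sspn, among the genes used to choose the direction of the ratios. In all, 2 of 21 measured genes of the dystrophin complex list passed (9.52%, against 3.18% of all genes), Sspn and Bgn. The list's median was 0.10. Bgn, which encodes the matrix proteoglycan biglycan, is described with the matrix below.

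Chemokines, the ligands that draw leukocytes into damaged muscle, held the gene with the largest difference. Ccl2, the monocyte chemoattractant, was at -3.11 and -4.68 in the sspn samples and between -3.75 and 3.46 (median 0.50) in the sarcoglycan-deficient ones. Both sspn samples were below 9 of the 10, the exception being sgcb sample 1. Ccl2 was 42.7-fold lower in sspn, a difference of -5.42 (SE 1.02, adjusted p = 0.0067). The related monocyte attractants Ccl7, Ccl8 and Ccl12 differed by -4.04 (SE 0.96), -4.22 (SE 0.75) and -2.96 (SE 0.68), and in each the sspn samples overlapped sgcb sample 1 alone.

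Ccl6 was at -2.98 and -2.86 in sspn against -2.41 to 1.65 (median 0.18), and Ccl9 at -2.58 and -1.95 against -1.82 to 1.42 (median 0.23). Neither overlapped, and the differences were -3.52 (SE 0.60, adjusted p = 0.0033) for Ccl6 and -3.03 (SE 0.53, adjusted p = 0.0041) for Ccl9. Ccl5, which also attracts T cells, and Cxcl10, a chemokine induced by interferon, fell by 2.04 (SE 0.48) and 2.56 (SE 0.68). Of 46 measured genes of the chemokine and cytokine list, these 8 passed, all lower, and the list's median was -0.58 against 0.04 over all genes. Limma's test passed 0 of its members without sgcb sample 2 or without 1 sample of the line not described on its own. The measured interleukins and tumour necrosis factor did not pass, among them, as examples chosen after their values were seen, Il1b at -1.34, Il6 at -0.54 and Tnf at -1.07. Il7r, the alpha chain of the interleukin 7 receptor and no member of that list, had the smallest p of all genes: it was at -2.37 and -3.64 in sspn, below the range of -1.75 to 1.76 (median 0.13) of the other 10, with a difference of -3.59 (SE 0.49, adjusted p = 0.0014). It was picked after its values were seen.

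**Figure D2:**
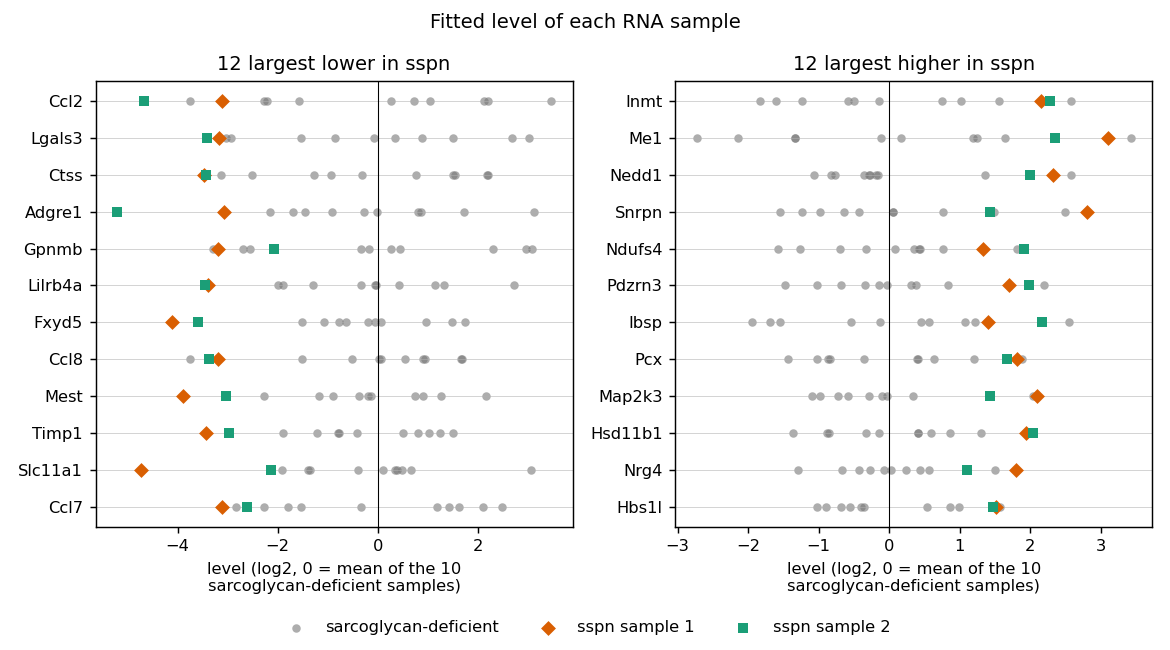
Fitted log2 level of each RNA sample, with 0 at the mean of the 10 sarcoglycan-deficient samples, for the 12 genes with the largest differences in each direction among those that passed the test. Grey circles are the 10 sarcoglycan-deficient samples, the orange diamond and the green square the 2 sspn samples. For Fxyd5, Lilrb4a, Mest and Timp1 both sspn samples lie apart on the left of all grey circles, while for most higher genes 1 grey circle reaches them.

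The macrophage list moved most. Of its 40 measured members 22 passed, all lower in sspn, 37 lay below 0, and the median difference was -2.51. Adgre1, which encodes the macrophage surface protein F4/80, was at -3.08 and -5.20 in sspn and between -2.16 and 3.12 (median -0.15) in the sarcoglycan-deficient samples. These ranges did not overlap, and Adgre1 was 21.9-fold lower (difference -4.45, SE 0.75, adjusted p = 0.0029). Lgals3, the gene of galectin-3, was at -3.17 and -3.41 against -3.02 to 3.03 (median 0.13), a difference of -5.11 (SE 1.01, adjusted p = 0.0087), with both sspn samples just under the lowest of the 10. Ctss, the gene of the lysosomal protease cathepsin S, differed by -4.81 (SE 0.96) and also did not overlap.

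Trem2, a lipid-sensing receptor of macrophages, was at -2.68 and -2.41 in sspn and between -2.17 and 2.35 (median -0.04) in the other 10. Its difference was -3.85 (SE 0.70, adjusted p = 0.0055), and that of Tyrobp, the adaptor that carries its signal, was -3.37. Slc11a1, which moves divalent metal ions out of phagosomes, was at -4.72 in sspn sample 1 but at -2.13 in sample 2, close to the lowest sarcoglycan-deficient level of -1.91. Its difference was -4.11 (SE 0.78). Gpnmb, a glycoprotein of lipid-laden macrophages, overlapped: sspn was at -3.19 and -2.08 and the others at -3.30 to 3.08, with a difference of -4.44 (SE 1.06, adjusted p = 0.024). Other members that fell were Cd52 (-3.95), Clec7a (-3.60), Itgb2 (-3.50), Ly86 (-3.49), Mpeg1 (-3.41), Aif1 (-3.35), Laptm5 (-2.84), the pan-leukocyte gene Ptprc (-2.80), Cd48 (-2.52) and the mannose receptor gene Mrc1 (-2.22).

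Among members that did not pass, chosen as examples after their values were seen, were the macrophage marker Cd68 at -2.86 (adjusted p = 0.062), Lyz1 at -3.02 (adjusted p = 0.058), Lyz2 at -0.24 and Cd14 at -1.63. In bulk RNA, fewer macrophages and less RNA of these genes per macrophage cannot be told apart. Macrophage genes also varied more between samples of a group than genes at large: the variance ratio of sample to array was 2.08 for this list and 0.207 over all genes, the value used for every gene in the test. With 2.08 in its place, a setting added after the data were seen, 4 genes passed in all (Il7r, Col5a2, Lilrb4a and Mgp), none on the macrophage list, and with 1 term for all sarcoglycan lines 10 members passed. Without sgcb sample 2 it was 2 members, and without 1 sample of the line not described on its own 1 member. The ratio of 2.08 also left 0 calls on the chemokine and cytokine list (551 genes at an unadjusted p under 0.05 in all), and with the 12 samples as own terms, also added after the data were seen, 4 of its 8 members passed.

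The lists of other leukocytes did not fall together with the macrophage list. On the list of T, B and NK cell genes 1 of 22 passed (4.55%, against 3.18% of all genes), and the median was -0.09. It was Klrd1, a receptor chain of NK cells, at -1.83 (SE 0.40). That list does not hold every gene of these cells: Il7r, described above, and the adaptor gene Blnk passed lower and are not among its members. Among 16 neutrophil genes 0 passed, 15 lay above 0 and the median was 0.60. Camp, a granule protein, was at 1.88 and 0.77 in sspn and between -1.14 and 2.95 (median -0.57) in the others, where sgcb sample 1 was highest. That difference of 1.48 did not pass (adjusted p = 0.055), and against sgcb alone it was -0.38. Of 6 mast cell genes 0 passed.

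Complement genes split. Cfp, encoding properdin, fell by 2.15 (SE 0.46), C3ar1, the receptor of a fragment of C3, fell by 3.31 (SE 0.74), and C1qc fell by 3.51 (SE 0.80). C1qc stood at -4.73 in sspn sample 1 and -1.34 in sample 2, against a lowest level of -1.14 among the other 10. C1qa differed by -2.15 and C1qb by 0.59, and neither passed; the 3 chains form 1 protein. In all, 10 of the 13 measured members did not pass (23.1% passed, against 3.18% of all genes), and the median was -0.10.

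Interferon-induced genes were lower in part: 5 of 25 passed (20%, against 3.18% of all genes), all lower, with a median of -0.63. Type I interferon drives many of them through a response element to which interferon-activated factors bind, searched for here as GAAA, any 2 bases, and GAAA again. The upstream sequences below belong to the 3 lower members that hold a match, on either strand, in the bases that the RefSeq promoter table (GRCm38.p6) gives before the start of the gene. Capitals mark the matches, which overlap where they run on. Each is printed along the gene's own strand: Ifit1 at chr19:34640639-34640888 (plus), Isg15 at chr4:156200819-156201068 (minus) and Oas1a at chr5:120907526-120907775 (minus).
Ifit1: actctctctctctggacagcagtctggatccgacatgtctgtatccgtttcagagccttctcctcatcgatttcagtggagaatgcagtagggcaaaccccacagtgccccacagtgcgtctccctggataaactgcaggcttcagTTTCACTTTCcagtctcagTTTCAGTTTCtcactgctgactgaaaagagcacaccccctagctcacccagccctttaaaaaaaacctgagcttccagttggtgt
Isg15: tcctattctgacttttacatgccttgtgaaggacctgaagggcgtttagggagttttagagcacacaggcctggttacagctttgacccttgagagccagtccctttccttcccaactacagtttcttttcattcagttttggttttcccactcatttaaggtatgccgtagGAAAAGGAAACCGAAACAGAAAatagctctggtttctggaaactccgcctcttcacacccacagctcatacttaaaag
Oas1a: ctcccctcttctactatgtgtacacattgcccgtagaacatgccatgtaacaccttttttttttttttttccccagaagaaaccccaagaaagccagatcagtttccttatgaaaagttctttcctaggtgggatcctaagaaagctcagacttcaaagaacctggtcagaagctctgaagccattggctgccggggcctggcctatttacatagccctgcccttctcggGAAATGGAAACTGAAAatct
The Ifit1 sequence holds 2 matches, that of Isg15 3 and that of Oas1a 2. The matches end 75, 56 and 4 bases before the start, in that order. Ifit1, an RNA-binding antiviral protein, was at -1.78 and -2.50 in sspn and between -1.32 and 1.72 (median 0.15) in the sarcoglycan-deficient samples, with a difference of -2.38 (SE 0.44, adjusted p = 0.0062). Oas1a, a sensor of double-stranded RNA, was at -2.55 and -1.96 against -1.54 to 2.03 (median -0.01), with a difference of -3.08 (SE 0.64, adjusted p = 0.011). Neither gene overlapped. Isg15, a ubiquitin-like protein, was at -1.51 and -2.47 against -1.90 to 2.13 and did overlap, with a difference of -2.83 (SE 0.69, adjusted p = 0.028).

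The other lower members were Irf5 (-2.64, SE 0.53) and Irf8 (-1.80, SE 0.40), transcription factors that macrophages also express. With the 12 samples as own terms, Ifit1, Oas1a and Irf5 did not pass limma's test (adjusted p = 0.092, 0.092 and 0.083). The list's variance ratio was 0.398, against the 0.207 used for every gene. The element was present upstream of 8 of the 22 list members with a promoter entry (36.4%) and of 194 of the 5168 genes with 1 (3.75%). It was upstream of 9 of the 132 lower genes with an entry (6.82%) and of 0 of the 33 higher ones. The other 5 members with the element did not pass: Stat2 differed by -1.38, Ifit3 by -1.22, Ifi203 by -1.25, Tgtp1 by -0.67 and Gbp3 by -0.56.

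Proteases and their inhibitors, inside and outside the cell, formed another list. Timp1, an inhibitor of matrix metalloproteases, was at -3.43 and -2.97 in sspn and between -1.89 and 1.505 (median 0.05) in the others. The gap between the groups was over 1 log2 unit, and Timp1 was 18.2-fold lower (difference -4.19, SE 0.81, adjusted p = 0.0081). Adam19, a membrane-bound metalloprotease, differed by -3.43 (SE 0.55, adjusted p = 0.0022), Cstb, the cathepsin inhibitor cystatin B, by -3.28, and Ctsc, which activates granule proteases, by -2.54. With Ctss, 5 of 37 measured members passed (13.5%, against 3.18% of all genes), all lower. The list's median of -0.08 lay near that of all genes.

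Matrix genes fell in a subset. Col5a2, a chain of the fibril collagen V, was at -1.85 and -2.36 in sspn and between -0.65 and 0.80 (median -0.10) in the other 10. Its groups were far apart and its spread small, with a difference of -2.31 (SE 0.32, adjusted p = 0.0014). Mgp, matrix Gla protein, was at -2.79 and -2.28 against -1.19 to 1.25 (median 0.01), a difference of -2.77 (SE 0.40, adjusted p = 0.0018). Bgn was at -3.06 and -1.98 against -0.86 to 1.14 (median -0.18), a difference of -2.59 (SE 0.43, adjusted p = 0.0028). None of these 3 overlapped. Col14a1 (-2.33), Plod2 (-1.97), a lysyl hydroxylase that prepares collagen for cross-linking, Col6a1 (-1.76), Col18a1 (-1.59) and Lamb1 (-1.25) also passed, making 8 of 51 members, all lower, with a median of -0.55.

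The main fibril collagens did not pass. Col1a1 differed by 0.01 (SE 0.70) and Col3a1 by -1.76 (SE 0.60, adjusted p = 0.11), and their levels overlapped widely: Col1a1 was at 0.51 and 0.24 in sspn and between -2.32 and 2.60 in the others. On the fibroblast list 2 of 20 members passed (10%, against 3.18% of all genes). They were S100a4, at -3.27 (SE 0.62), which macrophages also express, and Fap, a protease of activated fibroblasts, at -1.80 (SE 0.41). Bmp5, a growth factor of the BMP family, was at -2.07 and -2.32 in sspn and between -1.29 and 0.96 (median -0.04) elsewhere, a difference of -2.42 (SE 0.34, adjusted p = 0.0014). Id2, a target of BMP signals, and Tgfbi, which TGF-beta induces, fell by 2.79 (SE 0.65) and 1.57 (SE 0.40). These were the 3 of 36 TGF-beta and BMP genes that passed (8.33%, against 3.18% of all genes), and the list's median was -0.04.

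**Figure D3:**
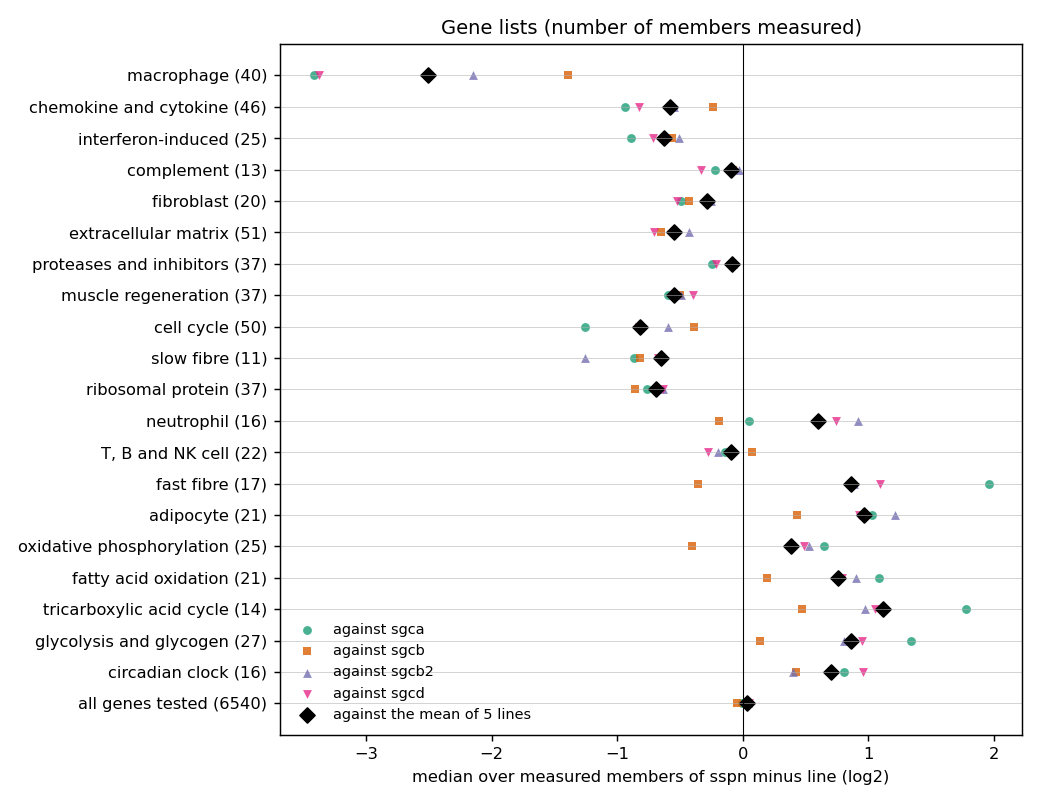
Median over the measured members of 20 lists and of all genes, for the difference between sspn and a sarcoglycan-deficient line, on the log2 scale, with the number of members in brackets. Black diamonds are against the mean of the 5 lines, coloured symbols against sgca, sgcb, sgcb2 and sgcd. Among the lists shown, the macrophage list lies farthest left in each of these, from -3.42 against sgca to -1.39 against sgcb. The lists of energy metabolism lie on the right, except oxidative phosphorylation against sgcb (-0.40). Antigen presentation, a list of 4 measured members not shown, had a median of -1.44 against sgcb and -1.65 against the mean.

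Genes of regenerating fibres were lower as well. Mest, an imprinted gene active in embryonic muscle, was at -3.88 and -3.04 in sspn and between -2.28 and 2.15 (median -0.17) in the others, 18.5-fold lower (difference -4.21, SE 0.66, adjusted p = 0.0022). Tnnt2, the cardiac troponin T that immature skeletal fibres make, was at -3.54 and -3.10 against -1.70 to 2.28 (median -0.14), a difference of -3.35 (SE 0.57, adjusted p = 0.0031). Both genes separated the groups. Ankrd1 (-2.16), Ncam1 (-1.44), a cell adhesion molecule of new and denervated fibres, and Igf1 (-1.51), a growth factor for muscle, also passed. That made 5 of 37 members, with 29 below 0 and a median of -0.55. Myog, a regulator of differentiation, was at -1.35 and -1.52 in sspn, below the lowest of the 10 at -1.30, but did not pass (difference -1.92, adjusted p = 0.16).

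Fibre type genes gave 1 call in 28, near the share of 3.18% over all genes. Casq2, the slow and cardiac calsequestrin, which stores calcium, was at -2.49 and -2.01 in sspn against -1.03 to 1.34 (median -0.25), a difference of -2.31 (SE 0.46, adjusted p = 0.0094). The other 10 slow fibre genes did not pass, and the list's median was -0.65. Slow fibre genes also varied between samples, with a variance ratio of 1.88, and at the ratio of 2.08 Casq2 was at -2.07 and did not pass (adjusted p = 0.14). Of 17 fast fibre genes 0 passed and 14 lay above 0, with a median of 0.86. Their values differed by line, with a median of 1.96 against sgca and -0.36 against sgcb.

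Cell division genes had a median of -0.81 over 50 members, 41 of them below 0, and 2 passed (4%, against 3.18% of all genes). Ccna2, cyclin A2, was at -2.65 and -2.04 in sspn and between -2.001 and 3.53 (median -0.37) in the others, a difference of -3.30 (SE 0.82, adjusted p = 0.031). Cdk1, the kinase of mitosis, fell by 2.26 (SE 0.57). No other member of the list passed, though Pola1, the catalytic subunit of DNA polymerase alpha, came near at -2.45 (adjusted p = 0.051). In both genes that passed, sgca sample 1 had the highest level. The list's variance ratio was 1.01, and at 2.08 neither Ccna2 (-2.50, adjusted p = 0.40) nor Cdk1 (-2.08, adjusted p = 0.24) passed.

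Genes of cytosolic ribosomal proteins lay below 0 in 35 of 37 cases without a call. Their median was -0.69, and 7 of the 37 had both sspn samples below all 10 others, where 5.12% of all genes did. Rpl5 was at -1.27 and -1.16 in sspn against -0.63 to 1.16 (median -0.15), with a difference of -1.15 (SE 0.32, adjusted p = 0.053). Rps7 and Rpsa differed by -1.48 and -1.09 (adjusted p = 0.054 and 0.058). Against each of the 4 named lines the list's median lay between -0.85 and -0.63.

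The 37 higher genes were fewer and changed less. Inmt, a methyltransferase of small amines, was at 2.15 and 2.28 in sspn and between -1.83 and 2.58 (median -0.32) in the sarcoglycan-deficient samples. It was 8.05-fold higher, a difference of 3.01 (SE 0.69, adjusted p = 0.020), with sgcb2 sample 1 above both sspn samples. Me1, the cytosolic malic enzyme that supplies NADPH for fat synthesis, was at 3.10 and 2.34 against -2.73 to 3.42 (median 0.03), a difference of 2.86 (SE 0.63, adjusted p = 0.017). Here sgcb sample 1 was above both. That sample had the highest level of the 10 for 31 of the 37 higher genes and for 1618 of the 6332 that did not pass.

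Among the higher genes of mitochondria, Ndufs4, a subunit of complex I, differed by 2.30 (SE 0.55, adjusted p = 0.024) and Pcx, pyruvate carboxylase, which refills the tricarboxylic acid cycle, by 2.05 (SE 0.52, adjusted p = 0.035). Hsd11b1, which makes active glucocorticoid from its inactive form, was at 1.94 and 2.03 in sspn and between -1.37 and 1.29 (median 0.13) in the others, with no overlap and a difference of 2.05 (SE 0.51, adjusted p = 0.032). Pon1, a lipid-associated esterase, was at 1.24 and 1.76 against -1.07 to 1.00, and Car14, a membrane carbonic anhydrase, at 1.46 and 1.60 against -1.28 to 1.31. Their differences were 1.96 (SE 0.40) and 1.95 (SE 0.44). Other named genes that rose were Nedd1 (2.70), Snrpn (2.58), Pdzrn3 (2.28), Ibsp (2.16), Map2k3 (2.05), Nrg4 (1.99), Hbs1l (1.96), Ybx2 (1.93) and the clock gene Rora (1.90). Klf15, picked after its values were seen, had the smallest p of the higher genes: this glucocorticoid-induced factor of amino acid metabolism was at 1.51 and 1.22 in sspn and between -0.57 and 0.67 in the others (difference 1.62, SE 0.27, adjusted p = 0.0029).

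Lists of energy metabolism lay above 0 with few calls: 3.7% to 7.14% of each list passed in either direction, against 3.18% of all genes. All 14 measured genes of the tricarboxylic acid cycle list were above 0, with a median of 1.12, and Pcx alone passed. Of 21 fatty acid oxidation genes 19 were above 0 (median 0.76) and of 27 glycolysis and glycogen genes 24 (median 0.86), and none of these passed higher. Pdk4, a kinase that blocks the use of pyruvate and a member of both lists, passed in the other direction at -1.18 (SE 0.32, adjusted p = 0.048). Oxidative phosphorylation had 1 call, Ndufs4, in 25, and a median of 0.39 that was -0.40 against sgcb alone.

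Adipocyte markers lay above 0 as well, without a call. Of 21 members 20 were above 0 and 0 passed, with a median of 0.97. The summed level of the list, given as its mean per sample, was 1.19 and 0.98 in sspn and between -0.70 and 1.40 (median -0.17) in the other 10. Ucp1, the uncoupling protein of brown fat, was at 4.82 and 2.46 in sspn and between -3.38 and 6.30 (median -0.85) in the others, highest in sgcb sample 1. Its difference of 4.08 did not pass (SE 1.15, adjusted p = 0.053) and was 0.43 against sgcb. Cidea, another brown fat gene, differed by 3.14. The part of fat RNA in the metabolic differences was not tested.

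The number of genes that passed differed between single sarcoglycan lines, of 2 samples each. Against sgca 169 genes passed (2.58%), 144 lower and 25 higher in sspn, and against sgcd 93 (1.42%), 80 lower and 13 higher. Against sgcb 3 genes passed (0.0459%): Sspn, the collagen gene Col5a2 at -2.07 (SE 0.35, adjusted p = 0.021) and Hal, histidine ammonia-lyase, at -3.73 (SE 0.64, adjusted p = 0.021). Against sgcb2 4 passed (0.0612%): Bmp5 at -2.67, Mgp at -3.07 and the small nucleolar RNA gene Rnu3a at -3.003 were lower, and Ibsp, the bone sialoprotein gene, at 3.34 was higher, each with an adjusted p of 0.046. Members of the macrophage list that passed numbered 20 against sgca, 21 against sgcd and 0 against sgcb and against sgcb2. These 4 comparisons share the sspn samples, and the differences between lines were not tested. With the 18 arrays alone 252 genes passed against sgca and 389 against sgcd, and leaving out single samples also changed the order. The counts therefore do not rank the lines.

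All 171 lower and 37 higher genes had the same sign against each of the 5 lines, as did 3155 of the 6332 genes that did not pass. On the 2 arrays that set an sspn sample directly against a sarcoglycan-deficient one, the ratio had the sign of the fitted difference for 171 and 169 of the lower genes and for 37 and 37 of the higher ones. These arrays are part of the fit, which by itself favours such matches. Among the 6332 genes that did not pass, the sign matched for 4557 and 4570. Of the 10 sarcoglycan-deficient samples, sgca sample 1 was highest for 125 of the 171 lower genes and sgcb sample 1 lowest for 96. Leaving out sgca sample 1 gave 210 lower and 47 higher genes, and leaving out sgcb sample 1 gave 213 and 114. The macrophage list averaged -1.89 and -1.64 in the 2 sspn samples and between -1.46 and 1.70 in the others.

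**Figure D4:**
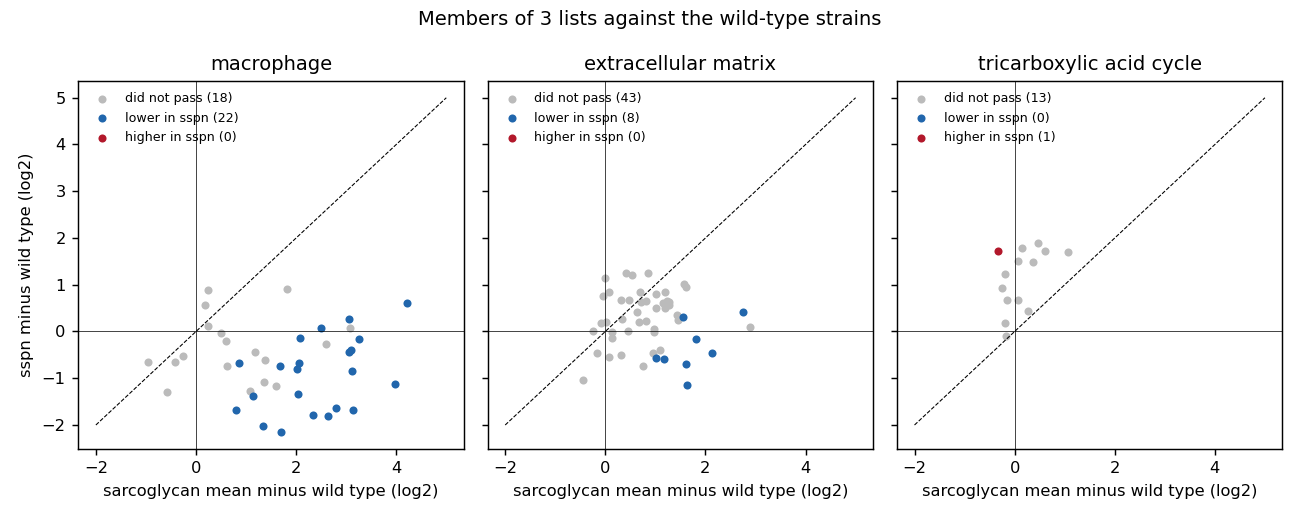
Members of the macrophage, extracellular matrix and tricarboxylic acid cycle lists, with the difference of the sarcoglycan mean from the wild types on the x axis and that of sspn from the wild types on the y axis, both on the log2 scale. The dashed line marks equal differences. Both axes share the wild type samples. The 22 macrophage genes that passed, in blue, lie to the right of 0, and 19 of them below 0 on the y axis, while the 14 genes of the tricarboxylic acid cycle list lie above the dashed line.

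The same genes were set against the wild types bl6 and bl10. Both contrasts share those 4 samples, and their values are given side by side without a test. The 171 lower genes had a median of 1.21 for the sarcoglycan mean minus wild type and of -0.98 for sspn minus wild type, and 167 were above wild type in the former and 163 below it in the latter. These genes were chosen for a low sspn and a high sarcoglycan level, which by itself favours such counts. Among the 6332 genes that did not pass, the medians were 0.04 and 0.08, and 3446 and 2802 lay above and below wild type in the same way. For 114 of the 171 the 95% interval of sspn minus wild type included 0. Timp1, for example, was 3.08 above wild type in the sarcoglycan lines (SE 0.62), and sspn differed from wild type by -1.11 with an interval from -3.15 to 0.93. Clec7a, a receptor for fungal glucans, was 4.21 above wild type in the sarcoglycan lines and 0.61 above it in sspn.

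Some lower genes were below wild type in sspn. Fxyd5, a regulator of the sodium pump, was at -4.12 and -3.59 in sspn samples against -1.52 to 1.74 in the sarcoglycan-deficient ones, 19.5-fold lower (difference -4.28, SE 0.68, adjusted p = 0.0022), and sspn minus wild type was -2.90 (interval -4.61 to -1.20). Sspn, Il7r and Ccl6 were likewise below wild type, Ccl6 by an estimated -2.21 (interval -3.72 to -0.70). The 37 higher genes had a median of 1.66 for sspn minus wild type and -0.12 for the sarcoglycan mean minus wild type. In sspn 37 of 37 were above wild type, though for 8 of them the interval of sspn minus wild type included 0. The higher genes were chosen for a high sspn level against the sarcoglycan lines, which by itself favours such a count. Among the 6332 genes that did not pass, 3530 were above wild type in sspn. Ribosomal protein genes were at a median of 0.10 in the sarcoglycan mean and -0.55 in sspn, and the tricarboxylic acid cycle at 0.06 and 1.35.

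The labels give no sex, and sex-linked genes differed between lines. Xist, the RNA that silences an X chromosome in females, was at 4.38 and 2.89 in the sgcb2 samples, at -1.97 and -1.96 in sspn and between -2.08 and -0.89 in the other named samples. The Y-linked genes did not mirror it: in the sgcb2 samples Kdm5d was at -0.29 and 0.26, Uty at -1.98 and 0.06 and Eif2s3y at -0.39 and -0.03. Uty was highest in the sgca samples, at 2.62 and 1.45, with sgcd sample 1 next among the named samples at 1.25. Without sgcb2 in the mean, 272 genes passed lower and 59 higher. The part of sex in single genes was not tested.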

How the data were processed

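The deposited table holds 1 value per row and array for 26 two-channel arrays, 16416 rows with 0 missing. The authors' processing, dyes and log base are not given in the sources used here. The deposited values were read as ratios on a natural log scale (generalized logarithm): of the 26 arrays, 21 had enough recurring values to test, and on 21 of these an inverse hyperbolic sine fitted within 1e-07 and a plain log on 0. They were divided by 0.6931 to give log2, and this scale understates changes of dim spots. Array medians ran from -0.074 to 0.173 on the deposited scale, and depth does not apply to arrays, whose number limits the precision.

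Rows with 1 gene (13662) were used and rows with several (14) or none (2740) left out. Of the former 13602 matched RefSeq by Entrez ID, and the mean over rows gave 6540 genes, 6370 of them on 2 rows and 170 on more. Of 274 rows of the named genes, 2 had the opposite sign to their gene. One model of all 26 arrays held 12 group terms and a dye term, with the RNA sample as a random effect (variance ratio 0.207), using limma 3.58.1 in R 4.3.3. It left 13 residual degrees of freedom, with 7.38 added by the empirical Bayes prior, and p-values were Benjamini-Hochberg adjusted over 6540 genes. Levels per sample came from a fit in which the 12 samples had their own terms, so they do not reproduce a difference. Large differences were mostly smaller in that fit, and several genes did not pass limma's test there. Among these were Lgals3 at -3.29 (adjusted p = 0.052), Ctss at -3.45 (adjusted p = 0.12) and Timp1 at -3.20 (adjusted p = 0.14). The fit was also run on simulated data with the variance ratio of 0.207 for every gene, so that run did not cover lists with higher ratios.

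Members and the 38 gene lists were chosen with earlier results of these data known. Genes were named by rule: the 15 largest differences that passed in each direction, the genes the lines lack, Dmd, and, per list, the 3 members with the lowest p or fewer. Any other gene named was chosen after its values were seen. Promoters came from RefSeq's GRCm38.p6 table, with entries for 5168 of the 6540 genes. Alternatives changed the centring, scaling, rows, random effect, dye term, array weights, empirical Bayes, arrays, line terms and replicate block, or left out a line or a sample. Values of 1 line are not reported here.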

Additional observations from a re-analysis of the deposited data

Results flagged for a closer look

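For 9 named genes 1 sarcoglycan-deficient sample was far above the other 9 by Dixon's ratio at its 95% critical value. That was 9 of 132 named genes, where chance alone gives about 1 in 20, and the genes share samples. Sample 1 of sgca stood out for 5 of them: Slc11a1 at 3.05 (next highest 0.67), Tgfbi at 1.66 (0.41), Rpsa at 1.18 (0.28), Eif2s3y, a Y-linked translation factor gene, at 1.07 (0.24), and Pdk4 at 0.88 (0.03). Sample 1 of sgcb stood out for Camp at 2.95 (1.01) and for Cd28, a co-receptor of T cells, at 1.68 (0.28). Sample 2 of sgcb stood out for the mast cell tryptase gene Tpsab1 at 2.11 (0.04), and sample 2 of sgcd for Itgax, the integrin CD11c of dendritic cells and macrophages, at 2.18 (0.57). The causes were not tested.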

How the results depend on the processing

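All 66 called genes among those named kept their sign under all 42 settings run on the 5-line mean or on fewer lines or samples. Among named genes that did not pass, Dmd kept its sign in 24 and Xist in 39 of the 42. How many genes passed varied widely. Against 171 lower and 37 higher genes, array weights gave 745 and 540, the 18 arrays alone 432 and 169, no random effect 349 and 123, and scaled arrays 302 and 105. One term for all sarcoglycan lines gave 24 higher genes (143 lower). The mean without sgca gave 117 lower and 24 higher, without sgcb 70 higher (209 lower), without sgcb2 272 lower and 59 higher, and without the line not described on its own 98 and 15. Array weights put 42.0% and the 18 arrays 28.1% of the calls on the higher side, against 17.8%. Leaving out 1 sample gave 0 to 393 lower and 0 to 119 higher genes. Lower genes fell short of 171 by over 1.5 times without bl10 sample 2 (98), dysf 2 (77), mdx3cv 1 (93), mdx3cv 2 (80), sgcb2 2 (74), sgcd 1 (94) or sgcd 2 (106), and exceeded it by over 1.5 times without hDMD 1 or 2 (277 each), sgca 2 (393), sjl 1 (307) or sjl 2 (262).

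Against sgca, sgcb, sgcb2 and sgcd, in that order, scaled arrays gave 254, 26, 18 and 216 genes, no random effect 360, 30, 33 and 215, and array weights 1250, 103, 221 and 581. The 18 arrays alone gave 106, 133 and 389 for sgcb, sgcb2 and sgcd, rows as features 1 for sgcb2, and no dye term 0 for sgcb. Leaving out 1 sample gave 0 to 598, 0 to 24, 0 to 30 and 0 to 202. The causes of these changes were not tested.

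Over 15 pairs of groups, same-numbered deviations correlated from -0.80 to 0.62 (median 0.03). These values came from a fit with a term for every sample, in which neighbours in the loop share array errors. Whether sample numbers pair the samples therefore cannot be told from them. With the replicate block 146 lower and 33 higher genes passed, 142 and 30 of them shared with the fit without it, and 0 passed against sgcb2 (limma). Chosen after seeing the data, the variance ratio of the macrophage genes gave 4 lower and 0 higher genes (551 at an unadjusted p under 0.05) and 0 against each of the 4 lines, and the 12 samples as own terms gave 35 lower, 34 of them shared, and 0 higher (672 at an unadjusted p under 0.05).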

Other observations

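A few of the 37 higher genes outside the naming rule are given here; they were picked after their values were seen, and are no evidence of a theme. Bcat2, the mitochondrial aminotransferase of branched-chain amino acids, differed by 1.84 between sspn and the sarcoglycan mean, Ivd, which acts later in the breakdown of leucine, by 1.42, and Prodh, which starts that of proline, by 1.46. Lpin1, a phosphatidate phosphatase, differed by 1.75. Each passed limma's test with Benjamini-Hochberg adjustment.

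Genes near Sspn on chromosome 6 were examined because a targeted allele can carry flanking sequence of another strain. Of the 20 measured genes before Sspn and the 4 after it, 1 passed, Eps8, an actin regulator, near the share of 3.18% over all genes. Their median difference was -0.01. Whether flanking sequence differs was not tested. The 16 genes of the circadian clock list had a median of 0.71, of which Rora passed, and the times at which mice were sampled are not given.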
